A study of Rattus norvegicus with 15 samples.

Results

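Duct cell genes and simple epithelial keratins were followed in isolated rat islets after partial pancreatectomy (Px) or sham surgery. The set held 9 genes picked by name as duct markers and keratins of simple epithelia: Krt7, Krt8, Krt18, Krt19, Sox9, Cftr, Spp1, Tspan8 and Muc1. All 9 were present among the 28914 genes of the count table, and all 9 passed the filter on low counts that left 15199 genes in the comparison of Px with Sham. The study followed Lewis rats for 10 weeks after surgery to ask how raised blood glucose changes islet cells. Polyadenylated RNA of islets was sequenced from 15 libraries.

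Px rats had lost 90% of the pancreas, and Sham rats had sham surgery. No transgene, drug or other agent is named for any group, and all animals were of the Lewis strain and are described as 4 to 5 weeks old, without the point of the study at which that age held. Each library carries an average blood glucose taken before sacrifice, in a unit the labels do not name. The 5 Sham libraries had values of 88 to 96. The 10 Px libraries were set in a lower-glucose group of 7 (104 to 211) and a higher-glucose group of 3 (416 to 464), divided at 300, where no rat lay. Libraries are named here by the number in their label. These numbers were taken to mark separate rats, which the labels do not state, so p-values measure the spread between these libraries. Isolated islets can carry other cells of the pancreas with them.

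The pancreatic duct is a simple epithelium that carries acinar enzymes to the gut and adds bicarbonate-rich fluid on the way. Its cells hold a cytoskeleton of type II keratins (Krt7, Krt8) paired with type I keratins (Krt18, Krt19), and express the transcription factor Sox9, the chloride and bicarbonate channel Cftr, the mucin Muc1 on the apical surface and the secreted phosphoprotein Spp1 (osteopontin). Several of these genes are not exclusive to ducts. Krt8 and Krt18 are made by acinar and endocrine cells, Krt7 is found in rat endocrine cells, Muc1 lies on the apical membrane of acinar cells, and Spp1 is a product of macrophages and of matrix-producing cells.

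Positions are those of the deposited table, whose build no source used here names. Krt7 (chr7:143059764-143075907, plus strand), Krt8 (chr7:143596511-143603803, minus strand) and Krt18 (chr7:143629455-143633131, plus strand) lay on 1 chromosome, Krt8 and Krt18 side by side. Krt19 (chr10:88055841-88060561, minus strand) and Sox9 (chr10:101288489-101293379, plus strand) lay on another. Cftr (chr4:42692836-42860676, plus strand), Spp1 (chr14:6673686-6679901, minus strand), Tspan8 (chr7:58814805-58847563, plus strand) and Muc1 (chr2:188543137-188547874, plus strand) completed the set. Counts were taken over exons. Krt19 shared exon bases with Krt14 on the same strand, and the other 8 genes shared none with any gene. Krt14 had 135 counts over all 15 libraries, against 271 to 1156 for Krt19 in each Px library.

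Upstream sequences are shown for the adjacent partner keratins Krt8 and Krt18, whose products assemble as a pair, and for Spp1 and Muc1, which had the largest differences between Px and Sham. RefSeq (build GRCr8) held an annotated start for these 4 genes and for Cftr and Tspan8, 6 of the 9 in all. Each line gives the 250 bases before the start, 5′ to 3′ on the gene's strand, with capitals marking letters that matched a searched motif.
Krt8: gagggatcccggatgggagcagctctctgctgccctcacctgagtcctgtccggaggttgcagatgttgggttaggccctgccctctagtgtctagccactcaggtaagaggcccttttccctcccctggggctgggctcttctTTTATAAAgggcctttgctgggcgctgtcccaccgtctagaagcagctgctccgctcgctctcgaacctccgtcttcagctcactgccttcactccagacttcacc
Krt18: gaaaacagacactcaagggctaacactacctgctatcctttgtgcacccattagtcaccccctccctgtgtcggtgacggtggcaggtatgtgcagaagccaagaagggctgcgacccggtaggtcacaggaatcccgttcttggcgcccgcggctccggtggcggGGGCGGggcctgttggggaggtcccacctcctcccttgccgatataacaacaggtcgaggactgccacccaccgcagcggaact
Spp1: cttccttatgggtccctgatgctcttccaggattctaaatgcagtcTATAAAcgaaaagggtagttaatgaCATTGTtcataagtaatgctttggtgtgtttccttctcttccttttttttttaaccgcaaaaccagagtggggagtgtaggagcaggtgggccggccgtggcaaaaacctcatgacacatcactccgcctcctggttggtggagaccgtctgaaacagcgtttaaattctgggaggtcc
Muc1: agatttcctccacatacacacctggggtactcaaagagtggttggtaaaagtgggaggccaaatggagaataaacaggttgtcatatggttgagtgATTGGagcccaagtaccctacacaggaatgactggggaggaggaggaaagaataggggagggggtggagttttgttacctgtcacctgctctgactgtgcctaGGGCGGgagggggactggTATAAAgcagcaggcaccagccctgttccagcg

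These windows lay at chr7:135010340-135010589 (Krt8, minus strand), chr7:135035918-135036167 (Krt18, plus strand), chr14:5619805-5620054 (Spp1, minus strand) and chr2:176933500-176933749 (Muc1, plus strand) of GRCr8, a build whose coordinates are not those of the count table. The motifs, searched on both strands in 33469 rat windows of the same length, were the TATA box TATAAA (in 12.9% of windows), the GC box GGGCGG (30.5%), the CCAAT box CCAAT (34.02%), the SOX motif ACAATG (11.1%), AP-1 TGANTCA (6.34%), the E-box CACGTG (5.59%), ETS CCGGAA (12.6%) and STAT TTCNNNGAA (7.67%). The Krt8 window held TATAAA on both strands in overlapping letters, starting 106 and 104 bases before the start. The Krt18 window held a GC box 84 bases before it. The Spp1 window held TATAAA at 204 bases and the SOX motif on the opposite strand at 179. The Muc1 window held TATAAA at 33 bases, a GC box at 51 and the CCAAT box on the opposite strand at 154. GC content was 60.0% for Krt8, 62% for Krt18, 52.8% for Muc1 and 46.8% for Spp1, against a median of 51.2% over all windows. No 2 of these 4 windows held the same set of motifs.

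Libraries held 12.2 to 18.4 M counts in Sham and 19.1 to 33.4 M in Px, with M for 1000000. As a share of counts, 17 acinar marker genes took 5.09% ± 5.37 (SD, n = 5) of counts in the Sham group, where replicate 25 reached 14.5%. In Px they took 29.9% ± 8.70 (SD, n = 10), and the difference had p = 0.000666 by an exact permutation test over libraries (two-sided), the smallest p this design can give. Levels are given as CPM, the counts for each 1000000 counts of the library after trimmed-mean (TMM) scaling, which does not let a few abundant genes set the total. Summed over 15 macrophage markers the level was 34.9 to 82.7 CPM in Sham and 921 to 4684 CPM in Px. Over 12 fibroblast and stellate markers it was 177 to 474 CPM in Sham and 1426 to 7277 CPM in Px, and no marker of the acinar, macrophage or fibroblast lists was at 0 in a whole group. The 8 mesothelial markers summed to 1374 to 1802 CPM in Sham and 673 to 1008 CPM in Px. Nearly all of this was Msln, which was lower in Px (-0.95 ± 0.12), while the other 7 summed to 7.03 to 8.36 CPM in Sham and 12.03 to 22.9 CPM in Px, with Calb2 at 0 in all groups. Islet identity was present in every library: 9 beta cell markers summed to 4894 to 5756 CPM in Sham and 2063 to 3544 CPM in Px. In bulk RNA of this kind, fewer cells of a type and less RNA per cell cannot be told apart.

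Of the 9 genes, 8 were higher in Px than in Sham, none was lower and Krt7 did not pass the test (edgeR quasi-likelihood, Benjamini-Hochberg adjusted p under 0.05 over 15199 genes). Over all genes tested, 34.5% were called higher and 30.2% lower, 64.7% in all, so that a call by itself did not set a gene apart. The median log2 fold change of the 9 was 2.88, against 0.02 over all genes, 3.21 over acinar, 3.90 over macrophage and 3.57 over fibroblast and stellate markers. In 7 of the 9 every Px library lay above every Sham library, as in 20.8% of all genes. The exceptions were Krt7 and Krt18. With library totals 5 of the 9 were called higher and 1 lower, where 2667 of the 15199 genes were called higher and 7950 lower. With scaling to endocrine granule genes all 9 were called higher, where 9175 of the 15199 were called higher and 715 lower.

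**Figure D1:**
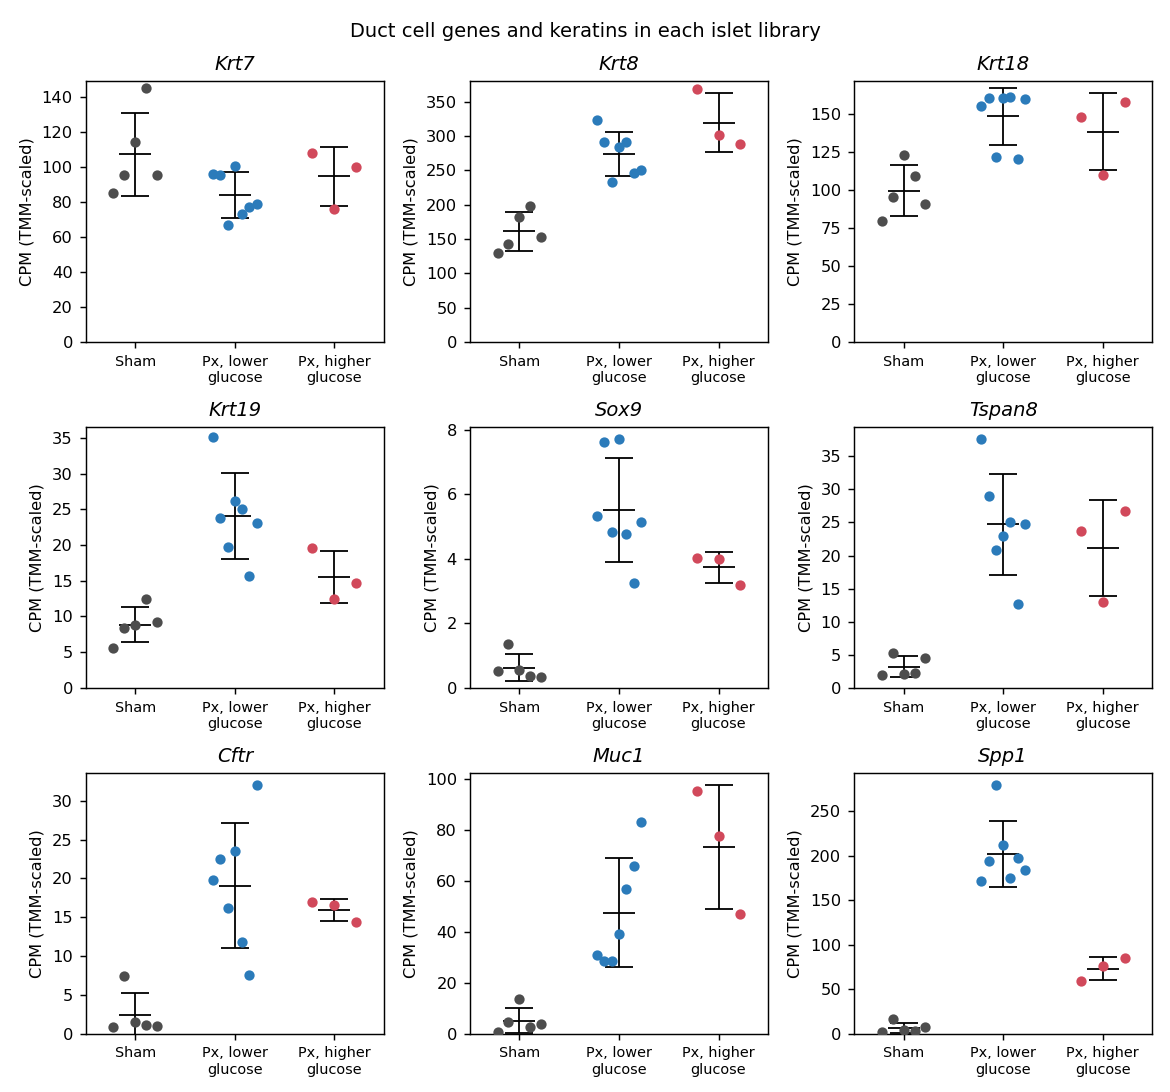
CPM after TMM scaling (linear axis from 0, 1 panel a gene) of the 9 genes in each library, grouped as Sham (5 libraries), lower-glucose Px (7) and higher-glucose Px (3), with the group mean and SD as bars, cut at 0 for Cftr in Sham. Points of Sox9, Cftr, Spp1, Tspan8 and Muc1 in Px lie above all Sham points, those of Krt7 overlap, and Spp1 falls into 3 separate ranges.

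Among the keratins, Krt8 and Krt18, the partner filaments of simple epithelia, rose moderately with TMM scaling, and with library totals neither passed and Krt18 turned to -0.07. Krt8 was 129, 142, 182, 198 and 153 CPM in Sham replicates 23 to 27. It was 323, 291, 233, 284, 292, 246 and 251 CPM in lower-glucose Px replicates 2, 4, 8, 10, 11, 14 and 16, and 368, 302 and 288 CPM in higher-glucose Px replicates 13, 15 and 19. Every Px library was thus above the highest Sham library, with a log2 fold change of 0.84 ± 0.12 (SE; adjusted p = 1.64e-05). Krt18 was 79.4, 95.5, 123, 109 and 90.7 CPM in Sham, in the same order of libraries. It was 155, 160.4, 122, 161, 161, 120.2 and 159.8 CPM in lower-glucose Px and 148, 109.7 and 158 CPM in higher-glucose Px. The groups overlapped, since Px replicates 8, 14 and 15 lay below the highest Sham library, and the log2 fold change was 0.55 ± 0.12 (adjusted p = 0.000748).

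Krt19, the small type I keratin used as a duct marker, started from a low level and rose more. Its Sham values were 5.61, 8.34, 8.75, 12.4 and 9.17 CPM. Lower-glucose Px libraries held 35.1, 23.8, 19.7, 26.1, 25.05, 15.7 and 23.03 CPM, and higher-glucose Px libraries 19.5, 12.4 and 14.7 CPM. Every Px library lay above every Sham library, but Px replicate 15 exceeded Sham replicate 26 by less than the last digit shown. The log2 fold change was 1.28 ± 0.23 (adjusted p = 0.000123).

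Krt7, the type II keratin of ducts, was the exception. It stood at 85.2, 95.7, 114, 145 and 95.7 CPM in Sham. It stood at 96.0, 95.8, 67.0, 100.5, 73.3, 77.4 and 79.0 CPM in lower-glucose Px and at 108, 75.9 and 100.3 CPM in higher-glucose Px. The ranges overlapped widely, and 1 of 10 Px libraries exceeded the Sham mean. The log2 difference of -0.30 ± 0.13 did not pass (adjusted p = 0.0598). It passed without Px replicate 13 (-0.32, adjusted p = 0.0436), without Sham replicate 23 (-0.37, adjusted p = 0.0278) and with DESeq2 (-0.32, adjusted p = 0.0384).

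Absolute directions of the keratins depended on the scaling. With library totals alone the median of all genes moved from 0.02 to -0.62 and the calls from 5242 higher and 4596 lower to 2667 and 7950. There Krt7 was lower (-0.92, adjusted p = 0.000868), and Krt8 (0.21, adjusted p = 0.377), Krt18 (-0.07, adjusted p = 0.802) and Krt19 (0.72, adjusted p = 0.0565) did not pass. Scaling to 8 endocrine granule genes moved the median to 0.61 and the calls to 9175 higher and 715 lower, and Krt7 was then higher (0.30, adjusted p = 0.0463). With TMM scaling, 4 of these 8 genes were themselves lower in Px than in Sham. Between the glucose groups 3 of the 8 were higher in higher-glucose Px, with a median log2 difference of 0.50. Calls gained or lost under endocrine scaling therefore depend in part on these 8 genes. A change of scaling moves all genes of a library together. Values taken relative to the median of all genes must therefore stay nearly the same under all 3 scalings, and they are given for position only. Krt7 stood at -0.32 to -0.30 from that median, Krt18 at 0.52 to 0.55, Krt8 at 0.81 to 0.82 and Krt19 at 1.26 to 1.34. Sox9, Cftr, Spp1, Tspan8 and Muc1 were called higher under each of the 3 scalings.

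Ratios of keratins within a library do not depend on the scaling. Per kilobase of exon, Krt8 and Krt18 were close to equal in Sham, with a ratio of 1.04 to 1.27, and the ratio ran from 1.10 to 1.46 in lower-glucose Px and from 1.28 to 1.93 in higher-glucose Px. Krt7 exceeded Krt19 by 6.99 to 10.2 times in Sham, by 1.83 to 3.30 times in lower-glucose Px and by 3.71 to 4.58 times in higher-glucose Px. These 3 ranges of the Krt7 to Krt19 ratio did not touch. The Krt8 to Krt19 ratio was 11.3 to 16.4 in Sham, 6.52 to 11.1 in lower-glucose Px and 13.4 to 17.2 in higher-glucose Px, so that the higher-glucose range overlapped Sham and the lower-glucose range did not. These ratios were chosen after the values were seen and are given without a test.

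Sox9, the transcription factor that maintains duct and progenitor identity, was barely detected in Sham. Its Sham libraries held 0.529, 1.36, 0.569, 0.356 and 0.344 CPM, from 6 to 27 counts each. Lower-glucose Px libraries held 5.34, 7.63, 4.83, 7.72, 4.76, 3.25 and 5.13 CPM, and higher-glucose Px libraries 4.02, 4.01 and 3.19 CPM. The lowest Px library stood clear of the highest Sham library, and the log2 fold change was 2.97 ± 0.34 (adjusted p = 1.32e-06).

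Cftr, the apical anion channel that drives duct fluid secretion, followed a similar pattern with more spread. It was 0.899, 7.38, 1.57, 1.16 and 0.975 CPM in Sham. It was 19.8, 22.4, 16.2, 23.5, 11.9, 7.59 and 32.0 CPM in lower-glucose Px and 16.96, 16.5 and 14.3 CPM in higher-glucose Px. Sham replicate 24 stood far above the other Sham libraries and almost level with Px replicate 14, the lowest of the Px libraries. The log2 fold change was 2.92 ± 0.48 (adjusted p = 5.68e-05), and without Sham replicate 24 it was 3.95 (4.02 in lower-glucose and 3.77 in higher-glucose Px).

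Tspan8, a tetraspanin of epithelial membranes, was 1.96, 5.31, 2.06, 2.31 and 4.47 CPM in Sham. It was 37.6, 28.9, 20.8, 23, 25.05, 12.7 and 24.7 CPM in lower-glucose Px and 23.7, 12.97 and 26.7 CPM in higher-glucose Px. All Px libraries lay above all Sham libraries, with a log2 fold change of 2.88 ± 0.31 (adjusted p = 6.53e-07). Px replicate 14 was the lowest Px library for Tspan8 as for Cftr.

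Muc1, the transmembrane mucin of apical surfaces, was 0.846, 4.65, 13.8, 2.76 and 3.90 CPM in Sham. It was 30.8, 28.5, 28.4, 38.9, 56.9, 65.9 and 82.9 CPM in lower-glucose Px and 95.2, 77.4 and 47.1 CPM in higher-glucose Px. The log2 fold change was 3.39 ± 0.51 (adjusted p = 2.38e-05). Muc1 was highest in Sham replicate 25, the Sham library with the most acinar RNA, without which the log2 fold change was 4.18, and the 5 Sham libraries had the same order in Muc1 as in the summed acinar markers. In Px its 3 lowest libraries, replicates 2, 4 and 8, were those with the lowest acinar sums, and its highest, replicates 13 and 16, those with the highest. With an acinar score as a covariate the Muc1 difference was 0.47 (adjusted p = 0.0823). The acinar sums of Sham and Px did not overlap, so this fit cannot separate surgery from acinar RNA.

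**Figure D2:**
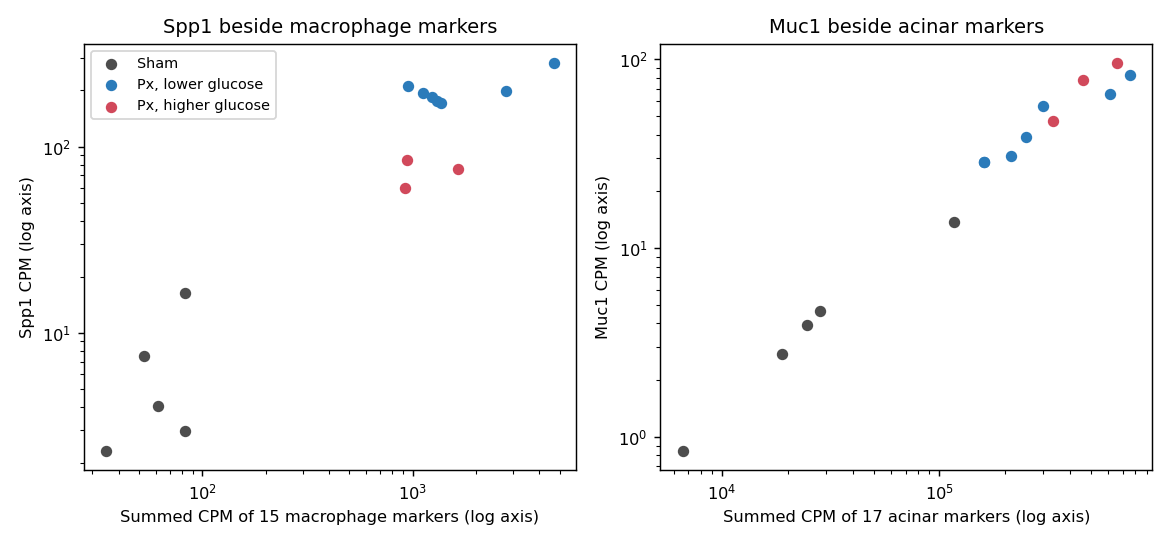
Spp1 CPM against the summed CPM of 15 macrophage markers (left) and Muc1 CPM against the summed CPM of 17 acinar markers (right), log axes, 1 point for each of the 15 libraries, coloured by group. Muc1 is higher where the acinar sum is higher, and the 3 higher-glucose Px libraries lie below the 7 lower-glucose ones for Spp1.

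Spp1, the secreted phosphoprotein osteopontin, had the largest difference of the set. Its Sham libraries held 2.33, 16.4, 4.02, 2.98 and 7.51 CPM. Lower-glucose Px libraries held 172, 194, 279, 212, 176, 198 and 184 CPM, and higher-glucose Px libraries 59.6, 75.7 and 84.6 CPM. The 3 groups did not overlap, and the log2 fold change of all Px against Sham was 4.62 ± 0.53, or 24.6-fold (adjusted p = 1.3e-06). Sham replicate 24 was the highest Sham library here too, and without it the value was 5.28. Per kilobase of exon Spp1 stood at 4.38 CPM in Sham, below the 4 keratins, and at 108 in Px, where only Krt8 (148) was higher. Its highest library, Px replicate 8, also had the highest macrophage sum (4684 CPM). Px replicate 14 was next in that sum (2790 CPM) and 3rd in Spp1. The order did not hold throughout. Px replicate 10, 2nd in Spp1, had a macrophage sum of 949 CPM, and Px replicate 15, with 1642 CPM, was 9th of 10 in Spp1. With a macrophage score as a covariate the Spp1 value was 1.32 ± 1.60 in all Px, 2.68 ± 1.37 in lower-glucose and 1.45 ± 1.27 in higher-glucose Px. In the same fit of all Px, Sox9 was 3.09 ± 1.28, Tspan8 3.36 ± 1.20, Muc1 3.33 ± 2.21 and Cftr 1.78 ± 1.95. Standard errors were wide there, and that fit called no gene of any kind in all Px against Sham (edgeR, with 1643 genes at an unadjusted p under 0.05). The macrophage sums did not overlap between Sham (34.9 to 82.7 CPM) and Px (921 to 4684 CPM). This fit therefore cannot separate surgery from macrophage RNA. A value that fell or stayed in it does not show which of them a difference followed.

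With the acinar score as a covariate, 5 of the 9 remained called higher in Px. These were Krt19 (1.52, adjusted p = 0.0157), Sox9 (3.42, adjusted p = 0.000608), Cftr (2.51, adjusted p = 0.0411), Spp1 (5.02, adjusted p = 0.000686) and Tspan8 (3.33, adjusted p = 0.000503). Krt8 (0.59, adjusted p = 0.0612), Krt18 (0.29, adjusted p = 0.329) and Muc1 lost the call. With the covariate 6007 of 15199 genes were called in all, 3302 higher and 2705 lower, against 9838 without it. The summed acinar markers did not overlap between Sham (6582 to 116553 CPM) and Px (159885 to 755615 CPM). This fit therefore cannot separate surgery from acinar RNA, and a call kept or lost in it does not show which of them a difference followed.

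Both glucose groups of Px were compared with the same 5 Sham libraries, so their values are set side by side and not correlated. In lower-glucose Px, 8 of the 9 were called higher and Krt7 lower, where 33.6% of 15661 genes were called higher and 30.0% lower (63.5% in all). In higher-glucose Px, 8 were called higher and Krt7 did not pass (-0.18 ± 0.18, adjusted p = 0.391), where 32.2% of genes were called higher and 25.5% lower (57.7% in all). In both groups 7 of the 9 lay above Sham in every library, as did 22.9% of all genes in lower-glucose and 30.3% in higher-glucose Px. Krt7 in lower-glucose Px (-0.36 ± 0.14, adjusted p = 0.0372) lost its call without any 1 of Px replicates 8, 11, 14 and 16 and Sham replicates 25 and 26 (-0.22, adjusted p = 0.153, without Sham replicate 26). Scaled to endocrine granule genes it was higher instead (0.32, adjusted p = 0.0447).

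In lower-glucose and higher-glucose Px respectively, the log2 fold change against Sham was 0.76 ± 0.12 and 0.98 ± 0.15 for Krt8, 0.57 ± 0.13 and 0.47 ± 0.16 for Krt18, and 1.43 ± 0.20 and 0.80 ± 0.24 for Krt19. With library totals the 3 higher-glucose keratin values turned to -0.03, -0.52 and -0.21. The value was 3.11 ± 0.33 and 2.55 ± 0.37 for Sox9, 2.98 ± 0.50 and 2.73 ± 0.56 for Cftr, and 2.94 ± 0.32 and 2.71 ± 0.35 for Tspan8. Muc1 stood at 3.17 ± 0.50 and 3.80 ± 0.56, and Spp1 at 4.92 ± 0.42 and 3.46 ± 0.43, which is 30.4-fold and 11.03-fold. Without Sham replicate 25 the Muc1 values were 3.96 and 4.59, and without Sham replicate 24 the Spp1 values were 5.59 and 4.13. In higher-glucose Px, Krt18 (adjusted p = 0.0166) lost its call without Px replicate 13 (0.44, adjusted p = 0.0599) or 19 (0.36, adjusted p = 0.0984), and Krt19 (adjusted p = 0.0102) without Px replicate 13 (0.62, adjusted p = 0.0701).

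**Figure D3:**
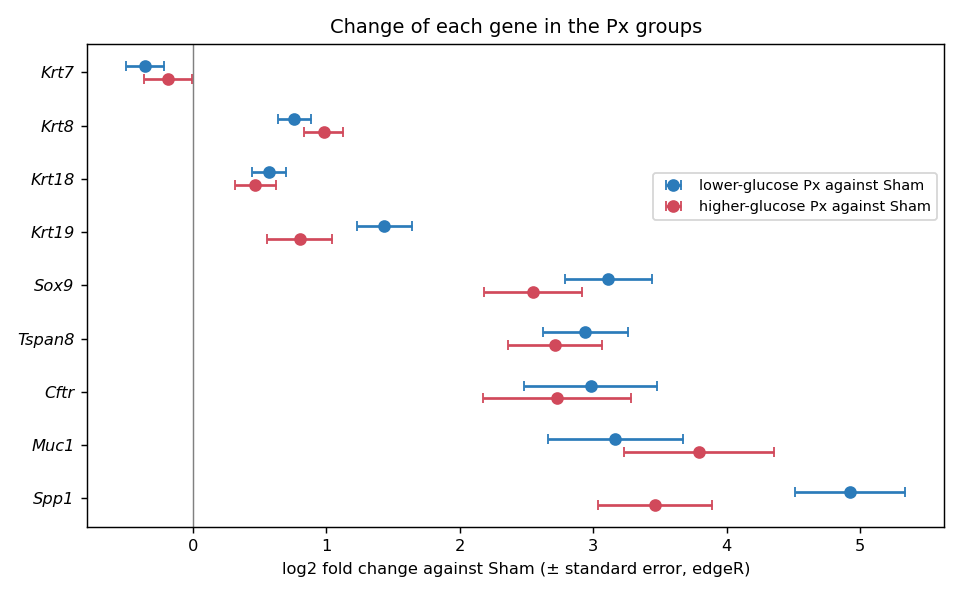
Log2 fold change (point) and its standard error (bar) of the 9 genes, with TMM scaling, in lower-glucose Px (blue) and higher-glucose Px (red) against the same 5 Sham libraries. Values in lower-glucose Px run from -0.36 for Krt7 to 4.92 for Spp1, and the 2 points of Spp1 lie farthest apart (4.92 and 3.46).

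Higher- and lower-glucose Px were compared directly. These groups were formed from the measured glucose and were not assigned. They also differed in the fibroblast sum given below, so glucose cannot be told apart from such differences here. None of the 9 genes passed in edgeR, where 3.29% of genes were called higher and 1.59% lower (4.88% in all). At an unadjusted p under 0.05 in edgeR there were 2 of the 9 (Spp1 and Krt19), close to the 22.8% of all genes at that level. DESeq2 and limma voom each called 1 of the 9, Spp1, where they called 1363 and 850 genes in all. Spp1 was 202 ± 36.8 CPM (SD, n = 7) in lower-glucose and 73.3 ± 12.7 CPM (SD, n = 3) in higher-glucose Px, with no overlap of the 2 groups, as in 4.46% of all genes in that direction and 5.39% in the other. Its log2 difference of -1.46 ± 0.42, or 2.75-fold, missed the threshold in edgeR (adjusted p = 0.0548). It passed with DESeq2 (-1.48, adjusted p = 0.0248), with limma voom (-1.46, adjusted p = 0.00331), and in edgeR without Sham replicate 23 (adjusted p = 0.0349), 24 (adjusted p = 0.00488) or 26 (adjusted p = 0.0462). Without any other library the adjusted p was 0.0565 to 0.219, the highest without Px replicate 13. The fibroblast sum moved the same way, at 2950 to 7277 CPM in lower-glucose and 1426 to 2260 CPM in higher-glucose Px. The macrophage sums overlapped, at 949 to 4684 and 921 to 1642 CPM, and adding the macrophage score to the model gave a Spp1 difference of -1.23 ± 0.39 (adjusted p = 0.0780). The part of the fibroblast markers was not tested.

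Krt19 was 24.1 ± 6.01 CPM (SD, n = 7) in lower-glucose and 15.5 ± 3.64 CPM (SD, n = 3) in higher-glucose Px, a log2 difference of -0.63 ± 0.24 (adjusted p = 0.127). Sox9 differed by -0.56 ± 0.33, Cftr by -0.25 ± 0.51, Tspan8 by -0.23 ± 0.32 and Krt18 by -0.10 ± 0.15. Krt7 (0.17 ± 0.17), Krt8 (0.22 ± 0.14) and Muc1 (0.63 ± 0.49) lay on the other side, and Krt7 and Krt8 turned negative with library totals (-0.36 and -0.33) and with endocrine scaling (-0.068 and -0.0041). None of these 7 had an adjusted p below 0.312. The number of higher-glucose libraries, 3, limits what this comparison can show.

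Within the 7 lower-glucose Px libraries no gene of the 9 had a slope on log2 glucose that passed, with slopes from -0.55 ± 0.57 (Muc1) to 0.60 ± 0.54 (Sox9) per doubling and adjusted p from 0.779 to 0.990. None had an unadjusted p under 0.05 either, and neither DESeq2 nor limma voom called any of them. In edgeR 0.0% of 15695 genes were called, with 1432 at an unadjusted p under 0.05, while DESeq2 called 101 and limma voom none. Px replicate 14, with the lowest glucose (104), had the lowest Cftr and Tspan8 of all Px libraries, and its neighbour in glucose, replicate 16 (119), the highest Cftr.

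The 9 genes did not rank the Px libraries alike. Px replicate 2 led in Krt19 and Tspan8, replicate 10 in Sox9, replicate 16 in Cftr, replicate 11 in Krt18 and replicate 13 in Krt7, Krt8 and Muc1. Px replicate 8 led in Spp1 and was last in Krt7, Krt8 and Muc1. Per kilobase, the order of levels in Sham ran from Krt8 (82.6 CPM per kb), Krt18 (72.7) and Krt7 (52.0) down to Krt19 (6.40), Spp1 (4.38), Tspan8 (2.76), Muc1 (2.25), Cftr (0.35) and Sox9 (0.18). In Px it ran from Krt8 (148), Spp1 (108), Krt18 (106) and Krt7 (42.3) to Muc1 (23.97), Tspan8 (20.3), Krt19 (15.5), Cftr (2.65) and Sox9 (1.46). Neighbours in these orders overlapped in their libraries, except Krt7 and Krt19 in Sham and, in Px, Krt18 and Krt7 as well as Krt19 and Cftr.

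Genes whose log2 CPM ran most alike over the 10 Px libraries were named by the highest Pearson r among 9738 genes, 3 for each. Muc1 had the closest company, with Aldh7a1 (r = 0.99), Cbs (0.98) and Slc7a5 (0.98). Spp1 ran with Mmp14 (0.94), a membrane metalloprotease that cleaves collagen, and with Raph1 and Sbf2 (0.92 each). Sox9 ran with Zbtb20 (0.95), Ptpn13 (0.92) and Pdzrn4 (0.90). Krt19 ran with Rrnad1 (0.97), Zfp821 and Ftsj1 (0.94 each), and Krt18 with Fsd1l (0.96), Rogdi and Mfsd8 (0.93 each). Tspan8 ran with Ccdc141 (0.94), Trmt10b and Zfp518a (0.92 each), and Cftr with Cutc (0.88), Lefty2 (0.86) and Slc35b2 (0.84). Krt8 ran with Pcdhb10 (0.91), Mettl22 (0.88) and Gdap1l1 (0.87), and Krt7 with Pcsk6 (0.90), As3mt and Tmod1 (0.88 each). No one of the 9 was among the 3 closest of another. These 10 libraries differed in acinar share (18.97% to 45.9%) and in depth, and the values describe these libraries only.

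Other duct genes were read from lists. Of 11 genes of duct ion and water transport, 8 were higher in Px, none lower, and the median log2 fold change was 1.88, where 34.5% of all genes were called higher and 30.2% lower. The water channel Aqp1 went from 4.77 ± 0.825 CPM (SD, n = 5) to 66.1 ± 22.05 (SD, n = 10), a log2 fold change of 3.79 ± 0.25. Aqp5, an apical water channel, rose by 4.01 ± 0.40 and the carbonic anhydrase Car2 by 1.88 ± 0.18. The bicarbonate cotransporter Slc4a4 was also higher in higher- than in lower-glucose Px (0.76 ± 0.16, adjusted p = 0.0117), a call lost with library totals (0.23, adjusted p = 0.503) and with endocrine scaling (0.55, adjusted p = 0.0862). With library totals 7 of the 11 were called higher and 2 lower, where 2667 of all genes were called higher and 7950 lower.

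Of 10 duct transcription factors tested, 6 were higher and 3 lower (34.5% and 30.2% of all genes), and their median was 0.69. Onecut1 (3.13 ± 0.42), Ehf (2.88 ± 0.36) and the Notch target Hes1 (1.56 ± 0.14) rose. Glis3 (-0.94 ± 0.11) and Foxa2 (-0.86 ± 0.15), both also active in endocrine cells, fell, although neither passed when scaled to endocrine granule genes.

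Of 8 genes of the duct cilium and of cystic disease, 1 was higher and 5 lower (34.5% and 30.2% of all genes), their median being -0.32, and this direction turned to 0.25 with endocrine scaling. Dcdc2, a doublecortin-domain protein of cilia, rose by 2.87 ± 0.43. Pkd1, which encodes polycystin-1, went from 222 ± 19.9 CPM to 161 ± 15.5 (-0.47 ± 0.08). The kinesin Kif12 went from 270 ± 75.0 CPM to 181 ± 38.7 (-0.58 ± 0.17). Both stood far above Sox9 (0.63 CPM) and Cftr (2.40 CPM) in Sham, and which cells held them was not tested. Neither Pkd1 (0.12) nor Kif12 (-0.02) passed with endocrine scaling.

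Of 11 epithelial surface and junction genes, 7 were higher and 1 lower (34.5% and 30.2% of all genes), and the median of 0.46 turned to -0.17 with library totals. With library totals 3 of the 11 were called higher and 2 lower, where 2667 of all genes were called higher and 7950 lower. With endocrine scaling 10 were called higher, where 9175 of all genes were. The surface antigen Cd24 (1.88 ± 0.20), the claudin Cldn3 (2.17 ± 0.29) and the tight junction gene Ocln (0.84 ± 0.13) were higher. Cdh1, the E-cadherin of all pancreatic epithelia, was lower (-0.69 ± 0.12), and did not pass with endocrine scaling (-0.10, adjusted p = 0.360). All 9 genes associated with injured ducts were higher in all Px (34.5% of all genes), with a median of 3.24. In that comparison all 9 stayed so under all 3 scalings. They included the calcium-binding S100a6 (3.24 ± 0.24) and the annexins Anxa2 (3.51 ± 0.37) and Anxa3 (2.98 ± 0.29), and Anxa2 was lower in higher- than in lower-glucose Px (-1.14 ± 0.30, adjusted p = 0.0391), a call that library totals (adjusted p = 0.0602) and endocrine scaling (adjusted p = 0.0526) ended. In higher-glucose Px against Sham, library totals left 6 of the 9 called higher, where 1865 of all genes were. Genes of this list are also made by fibroblasts and macrophages, whose markers rose in the same libraries, and their part was not tested.

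Of 35 other keratins in the table, 7 passed the filter and 4 of these were higher (34.5% of all genes), with a median of 3.20. The 4 had Sham means of 0 (Krt14), 0.03 (Krt75), 0.29 (Krt17) and 0.49 CPM (Krt20). They passed the filter mainly through Px libraries, so this count and median follow in part from the filter and are no support by themselves. Krt17, a keratin of basal and injured epithelia, went from 0.291 ± 0.388 to 7.35 ± 3.64 CPM (4.66 ± 0.62). Krt20, a keratin of gut and urothelium, rose by 3.20 ± 0.50, and Krt75, at 1.11 CPM in Px, by 4.98 ± 0.80. Krt14 had no count in Sham and 135 in 8 Px libraries, which is at least 19.7-fold higher against a floor of 3 counts over the Sham group. Krt80 did not pass between Px and Sham but was higher in higher- than in lower-glucose Px (1.31 ± 0.23, adjusted p = 0.00425). That call was lost with library totals (0.72, adjusted p = 0.134) and with endocrine scaling (1.09, adjusted p = 0.0578).

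Of 11 desmosome and keratin linker genes, 3 were higher and 4 lower, close to the 34.5% and 30.2% of all genes. Their median was -0.09, and it was -0.75 with library totals and 0.48 with endocrine scaling. The plakophilin Pkp1 (2.995 ± 0.42) was higher in Px under all 3 scalings. Krtcap3 (0.66 ± 0.19) and plectin, Plec (0.40 ± 0.14), were higher too, but turned to -0.04 and -0.24 with library totals. Envoplakin, Evpl (-1.66 ± 0.15), and desmocollin 2, Dsc2 (-1.02 ± 0.09), were lower under all 3. Higher-glucose Px had more Krtcap3 (0.68 ± 0.16, adjusted p = 0.0255) and less Evpl (-0.64 ± 0.14, adjusted p = 0.0121) than lower-glucose Px. The Evpl call held under all 3 scalings, and Krtcap3 lost its call with library totals (0.14) and with endocrine scaling (0.47).

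Osteopontin acts through integrins and Cd44. All 9 genes of these receptors were higher in Px (34.5% of all genes), with a median of 2.13. With library totals 7 of 9 were called higher, where 2667 of all genes were. Cd44 is also on the injured duct list, so the 2 lists are not separate. Fibroblast and macrophage markers rose in the same libraries, and their part in the receptor values was not tested. The alpha chains Itga8 (3.39 ± 0.36) and Itga5 (2.03 ± 0.21) and the beta chain Itgb5 (1.40 ± 0.15) rose. Itgb3 was lower in higher- than in lower-glucose Px (-1.26 ± 0.28, adjusted p = 0.0162), the direction of the Spp1 value. Among markers of other cells, 16 of 17 acinar, all 15 macrophage, all 12 fibroblast and stellate and 3 of 5 mesothelial genes were higher in Px, where 34.5% of all genes were. Of the mesothelial genes 1, Msln, was lower, and 8 of 9 beta cell genes were lower, where 30.2% of all genes were.

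**Figure D4:**
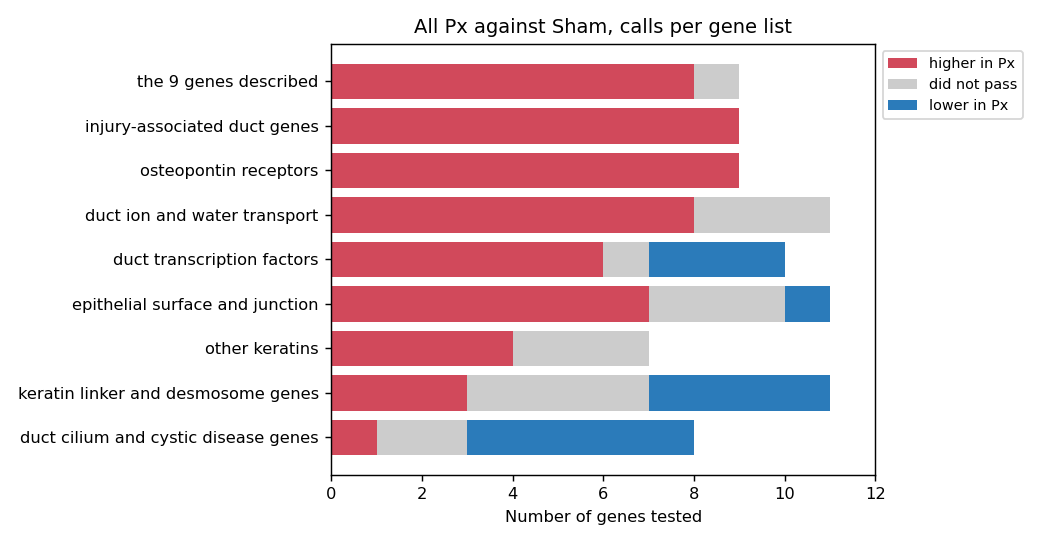
Number of tested genes called higher, called lower or not passing in all Px against Sham for the 9 duct genes and keratins and for 8 lists of related genes. The injured duct and osteopontin receptor lists, which share Cd44, are higher throughout (9 of 9 each), and the cilium list has 5 of 8 genes lower.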

How the data were processed

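RNA of 15 islet libraries was extracted with a miRNeasy kit and made into directional libraries, per the labels' protocols. The deposited file holds raw counts per gene over exons from 1 table of the whole series, made with Subread and featureCounts, per the submitters' processing notes, which also name FastQC and limma. No source used here gives the genome build, annotation or strand setting. The authors' deposited comparison table was not used.

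Counts were tested with edgeR 4.0.16 (R 4.3.3): genes kept by filterByExpr (minimum count 10, minimum total 15), TMM factors, quasi-likelihood F tests, Benjamini-Hochberg adjustment over all genes tested and a threshold of 0.05. The model for Px against Sham had 2 groups; that for the glucose groups had 3 and all 15 libraries; the slope was fitted to 7. The standard error is the log2 fold change divided by the root of F. The scripts were tested on simulated data. Alternatives were scaling by library totals or by endocrine granule genes, no filter or at least 1 CPM in 5 libraries, DESeq2 1.42.0, limma 3.58.1 voom, an acinar or macrophage score as a covariate, and leaving out each library. The 9 genes and all lists were chosen with earlier results of these data known. Named list genes are up to 3 rising and 2 falling by smallest p in all Px against Sham and up to 2 by smallest p between glucose groups (1 gene of the duct transcription factor list is not reported here); the closest genes needed a mean of 5 CPM (log2 with prior count 2).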

Additional observations from a re-analysis of the deposited data

Results flagged for a closer look

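Dixon's test at the 95% level, which flags about 1 in 20 groups by chance, was run on each gene in Sham and in lower-glucose Px and marked 3 of 18 cases. Sham replicate 24 stood above the other Sham libraries in Sox9 (1.36 CPM, next 0.569) and in Cftr (7.38 CPM, next 1.57). That library was also the highest Sham library for Spp1, Tspan8 and the fibroblast sum (474 CPM). Lower-glucose Px replicate 8 stood apart in Spp1 (279 CPM, next 212), and had the highest macrophage sum. Spp1 and that sum did not rank the other Px libraries alike.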

How the results depend on the processing

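No paired analysis was possible because the groups share no replicate number. With the acinar and macrophage covariates the genes called were 6007 and 0 (all Px; 9838 without, and 1643 at an unadjusted p under 0.05 in edgeR with the macrophage covariate), 6471 and 0 (lower-glucose; 9949 without, and 1656), 4469 and 7 (higher-glucose; 9043 without). Between glucose groups 764 genes were called, 142 with library totals, 418 with endocrine scaling and 1363 with DESeq2. On glucose 0 were called, 1 without a filter and 101 with DESeq2. Of the 9 genes, 8 were higher in each Px comparison; library totals left 5 in all Px and 5 in higher-glucose Px, the acinar covariate 5, 5 and 4, the macrophage covariate 0 in each. Lower calls were 1 in all Px with library totals and with DESeq2, 0 in lower-glucose Px with endocrine scaling, the 1 CPM filter or either covariate, 1 in higher-glucose Px with library totals, and 1 between glucose groups with DESeq2 and with voom.

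Signs turned for Krt7 in all Px (0.30 with endocrine scaling, 0.016 with the macrophage covariate), in lower-glucose (0.32) and higher-glucose Px (0.25, both endocrine scaling), and for Krt18 in all Px (-0.066, library totals). With library totals they turned in higher-glucose Px for Krt8 (-0.033), Krt18 (-0.52) and Krt19 (-0.21). Between glucose groups Krt7 gave -0.36 and Krt8 -0.33 with library totals, and -0.068 and -0.0041 with endocrine scaling. Slopes turned for Krt7 (0.67), Cftr (0.63) and Muc1 (0.13) with library totals, Cftr with voom (0.22) and Spp1 with endocrine scaling (-0.038). The median slope of all genes shifted by 0.72 with library totals and by -0.16 with endocrine scaling. The median of all Px against Sham shifted by -0.64 and 0.59. The cause of single turns was not tested.

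Leaving out 1 library gave 9297 to 9827, 9316 to 10057, 7932 to 9165 and 270 to 983 genes called in the 4 group comparisons, the last falling to 468, 270, 378 and 384 without Px replicates 2, 13, 15 and 19. Of the 9, between 8 and 8, 8 and 8, and 6 and 8 stayed higher against Sham, and 0 to 1 were lower in all Px, in lower-glucose Px and between glucose groups. Between glucose groups Krt18 ran from -0.20 to 0.044 and Tspan8 from -0.43 to 0.030. Slopes ran from -0.26 to 0.30 (Krt7), -0.21 to 0.60 (Krt19), -0.073 to 1.59 (Sox9), -1.52 to 0.90 (Cftr), -0.030 to 0.50 (Spp1) and -0.37 to 0.93 (Tspan8). Sox9 in Sham rests on 6 to 27 counts a library, the lowest counts of the 9 there.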
